A study of Mus musculus with 48 samples.

Results

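The 6 genes described here are the brain metallothioneins Mt1, Mt2 and Mt3, the zinc-sensing transcription factor Mtf1, and the metal exporters Slc30a1 and Slc30a10. They were matched by symbol to the Ensembl identifiers of the deposited count files, and all 6 were found among the 47643 genes listed there. They were selected on their Astro and PAP counts in these same libraries, with this comparison already known, so their differences between compartments are descriptions: no p-value of a member is given, and how many passed a threshold is stated beside the share of all genes that did, with nothing read from it.

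The libraries hold ribosome-bound RNA of the dorsal hippocampus of Tg(Aldh1l1-eGFP/Rpl10a) JD130Htz mice, a transgenic line in which regulatory sequence of the astrocyte gene Aldh1l1 drives a ribosomal protein fused to green fluorescent protein. An antibody against the fluorescent protein then recovers polysomes, ribosomes together with the messenger RNA they carry, mainly from astrocytes. Full astrocytes (Astro) were compared with perisynaptic astrocytic processes (PAP), the fine branches of astrocytes around synapses, and 3 animals each gave both preparations. Every library carries the transgene, no treatment is named, and age and sex are not given in the labels. The design asks which ribosome-bound messages differ in level between the processes and the whole cell.

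The 48 deposited samples are 8 technical replicates of each of 6 libraries and were summed accordingly, so n = 3 per compartment throughout. Pooled depth was 18707844 to 20293538 counts in Astro and 1829962 to 2980984 in PAP. A floor of 3 counts therefore corresponds to 0.148 to 0.160 CPM in Astro, CPM being counts divided by the depth of their library and put on 1 scale, and to 1.01 to 1.64 CPM in PAP. All 12 astrocyte markers had counts in every Astro library, and in PAP the exception was Fgfr3, a growth factor receptor gene, at 0 in animal 1. The summed level of the 12 markers was 16347 to 22470 CPM in Astro and 3042 to 10552 CPM in PAP, and 5 of the 12 passed the edgeR test as lower in PAP, or 0 with the animal as a block. In such bulk preparations, fewer astrocyte ribosomes in a sample and less RNA of a gene per ribosome cannot be told apart.

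Metallothioneins are small cytosolic proteins whose many cysteines bind zinc and copper ions, hold them in an exchangeable store and react with oxidants. Zinc that enters a cell activates the transcription factor MTF1, which switches on the genes of metallothioneins 1 and 2 and of the zinc exporter SLC30A1. Glucocorticoids also induce Mt1 and Mt2, while Mt3 is enriched in the nervous system and responds little to metals. In the hippocampus zinc is held in the synaptic vesicles of glutamatergic neurons, and astrocytes are a main site of Mt1 and Mt2 expression.

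The coding sequences of the 3 metallothioneins show why the genes are read as a family, and how far they differ for the assignment of reads. They are given 5′ to 3′ on the plus strand of chromosome 8 from the principal transcripts of GENCODE M21 (build GRCm38), with the cysteine codons TGC and TGT in capitals.
Mt1: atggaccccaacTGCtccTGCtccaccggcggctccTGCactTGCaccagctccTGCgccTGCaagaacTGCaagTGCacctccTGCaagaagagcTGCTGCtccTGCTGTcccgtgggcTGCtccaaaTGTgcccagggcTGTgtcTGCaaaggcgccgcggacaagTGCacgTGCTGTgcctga
Mt2: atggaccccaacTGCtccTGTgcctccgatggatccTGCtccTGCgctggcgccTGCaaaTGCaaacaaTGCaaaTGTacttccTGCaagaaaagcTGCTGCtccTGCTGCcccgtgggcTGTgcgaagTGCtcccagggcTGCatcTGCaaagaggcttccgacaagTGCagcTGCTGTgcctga
Mt3: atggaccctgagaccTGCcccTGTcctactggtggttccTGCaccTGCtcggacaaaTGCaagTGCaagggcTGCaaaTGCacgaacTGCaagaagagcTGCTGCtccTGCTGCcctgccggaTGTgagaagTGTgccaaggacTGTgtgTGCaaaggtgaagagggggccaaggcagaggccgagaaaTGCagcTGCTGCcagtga

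Each sequence holds 20 cysteine codons, 16 of them TGC and 4 TGT, within 61 codons before the stop in Mt1 and Mt2 and 68 in Mt3. Aligned over their whole length, Mt1 and Mt2 were identical at 79.6% of positions, Mt1 and Mt3 at 66.2%, and Mt2 and Mt3 at 67.6%. The longest run of identical bases was 20 between Mt1 and Mt2, 27 between Mt1 and Mt3, and 20 between Mt2 and Mt3. In these alignments, a stretch of coding sequence longer than the run differs between the genes in at least 1 position.

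The 3 genes lie side by side on the plus strand of chromosome 8 (GRCm38): Mt3 at chr8:94152607-94154146, Mt2 at chr8:94172664-94173568 and Mt1 at chr8:94179082-94180327. The gap from Mt3 to Mt2 is 18517 bases, and that from Mt2 to Mt1 is 5513 bases. The fourth gene of the cluster, Mt4, which is known from squamous epithelium, had 0 counts in every library.

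Mt1 messages were lower in the processes than in full astrocytes in each of the 3 animals. Mt1 (ENSMUSG00000031765) stood at 11358, 9712 and 9092 CPM in the Astro libraries of animals 1, 2 and 3, and at 1556, 4800 and 6225 CPM in their PAP libraries. The compartments did not overlap, and the PAP library of animal 1 was far below the other two. The mean was 10054 ± 1171 CPM in Astro and 4194 ± 2393 CPM in PAP (SD, n = 3), and the fitted log2 fold change was -1.26 ± 0.48 (SE from the edgeR fit). CPM values of single genes are scaled by the TMM factors, which put libraries of different composition on a common scale.

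Mt2 was also lower in the processes in each animal, and its PAP libraries had the same order as those of Mt1. Mt2 (ENSMUSG00000031762) stood at 2275, 2290 and 2254 CPM in Astro and at 266, 863 and 1200 CPM in PAP. The compartments did not overlap, and animal 1 again had the lowest PAP value. The fitted log2 fold change was -1.55 ± 0.52, with means of 2273 ± 18.4 CPM in Astro and 776 ± 473 CPM in PAP (SD, n = 3). After a correction of each library for GC content and gene length, the fold change of Mt2 on the log2 scale was -2.72, and with the animal as a block added it was -2.88, where Mt1 had -1.95 and Mt3 -2.36. The antisense gene Gm45774 overlaps exons of Mt2 in the annotation used here. It was not among the genes of the deposited counts, so no counts of it can be given. The strand setting of the counting is not given in the sources used here.

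Mt3, first described as a neuronal growth inhibitory factor, varied more among the PAP libraries than Mt1 and Mt2 did. Mt3 (ENSMUSG00000031760) stood at 3401, 3832 and 3311 CPM in Astro and at 238, 1143 and 2331 CPM in PAP. No PAP library reached the lowest Astro library. The means were 3515 ± 278 CPM and 1237 ± 1050 CPM (SD, n = 3), and the fitted log2 fold change was -1.51 ± 0.72. Without the PAP library of animal 3 the value was -2.42.

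**Figure D1:**
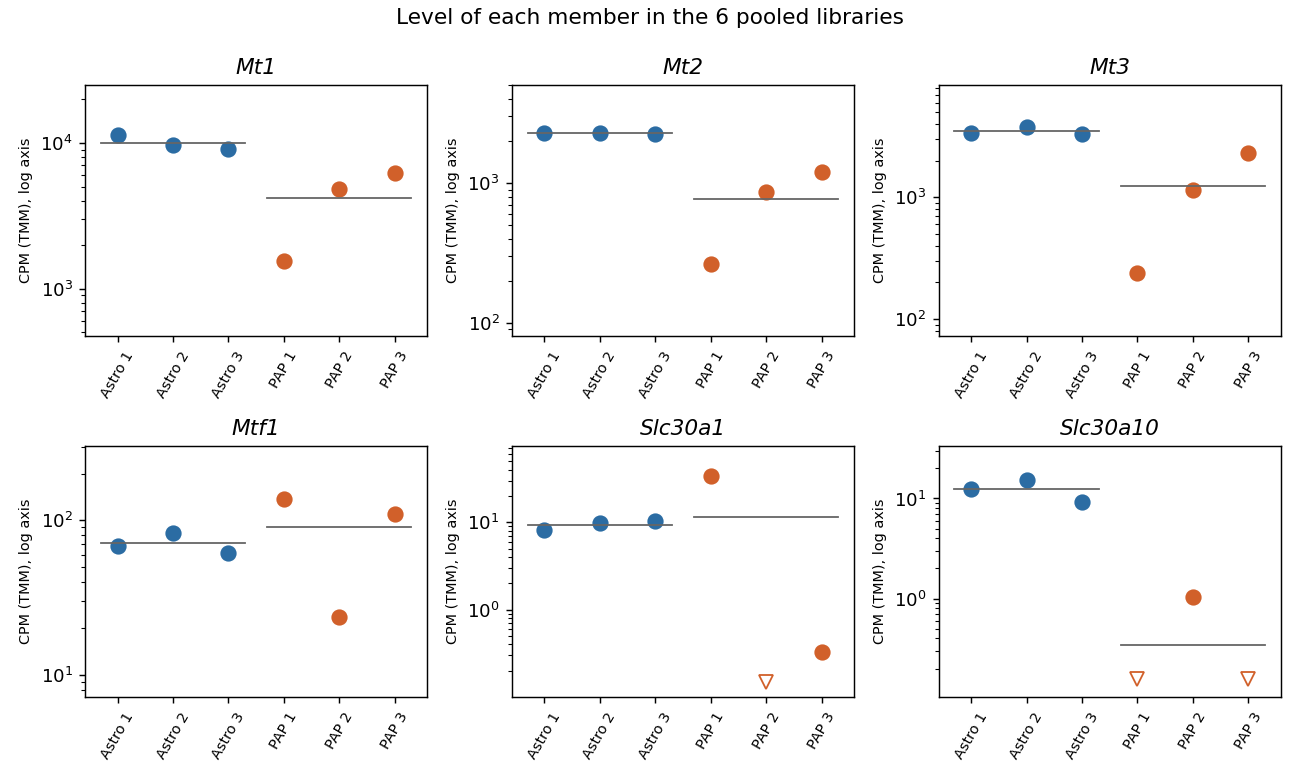
Level of each of the 6 genes in the 6 pooled libraries, in TMM-scaled CPM on a log axis, with Astro in blue, PAP in orange, animals 1 to 3 from left to right in each, and a grey line at the mean of each compartment. Open triangles mark libraries with 0 counts; Mt1, Mt2, Mt3 and Slc30a10 are lower in every PAP library than in every Astro library, while Mtf1 and Slc30a1 overlap.

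Within animals, the PAP level of Mt1 was 13.7%, 49.4% and 68.5% of the Astro level in animals 1, 2 and 3. For Mt2 it was 11.7%, 37.7% and 53.2%, and for Mt3 7.01%, 29.8% and 70.4%. The PAP library of animal 1 thus held the smallest fraction of all 3 messages, and Mt3 was the least retained of them in animals 1 and 2 and the most retained in animal 3.

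The summed astrocyte markers gave 13.5%, 29.2% and 64.6% in the same animals. Of the 12 markers, 9 had, like the 3 metallothioneins, their lowest PAP level in animal 1 and their highest in animal 3. Of the 14618 tested genes, 12.2% held this order, but 37.8% were at or under 3 counts in 2 or more PAP libraries. The 12.2% is thus no matched background for abundant genes, and nothing is read from it. Of the 9 markers with the order of the metallothioneins, Slc1a3, the glutamate transporter GLAST, kept 22.9%, 28.9% and 69.1% of its Astro level. Aldh1l1, the gene that gives the transgene its promoter, kept 21.6%, 37.3% and 44.1%. The order was not held by Sox9 (21.1%, 15.2% and 20.8%), Slc4a4 (37.0%, 56.6% and 3.11%) and Fgfr3 (0%, 41.1% and 8.49%). In animal 3, S100b (141%) and Ntsr2 (106%) were above their Astro level. How far the lower astrocyte marker sum bears on the lower metallothionein levels was not tested.

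**Figure D2:**
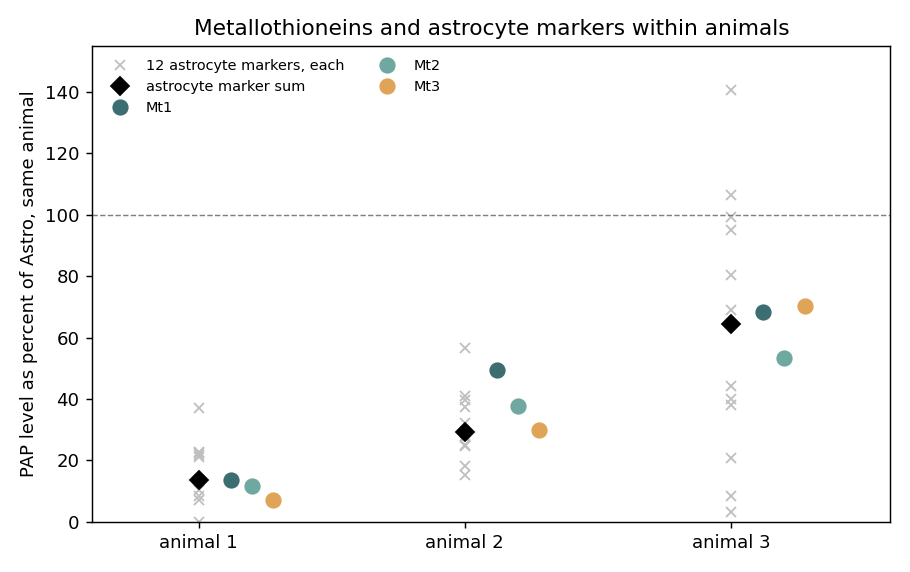
PAP level as a percent of the Astro level of the same animal, for Mt1, Mt2 and Mt3 (coloured circles), for each of 12 astrocyte markers (grey crosses) and for the sum of those markers (black diamonds). The dashed line marks equal levels. In animals 1, 2 and 3 the marker sum lies at 13.5%, 29.2% and 64.6%, and Mt1 at 13.7%, 49.4% and 68.5%. Mt2 lies at 11.7%, 37.7% and 53.2%, and Mt3 at 7.01%, 29.8% and 70.4%.

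The technical replicates of a library give the spread of repeated measurement alone and hold none of the spread between animals. Over its 8 technical replicates, Mt3 ran from 206 to 288 CPM of the library total in PAP animal 1, from 1086 to 1291 in animal 2 and from 2086 to 2517 in animal 3. These ranges do not touch. The ranges of Mt1 in PAP, 1354 to 1871, 4647 to 5582 and 5776 to 6845 CPM, were also apart.

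For Mt2 the ranges of animals 2 and 3 met, at 794 to 1143 and 1121 to 1279 CPM, above 238 to 334 CPM in animal 1. The coefficient of variation over animals was 11.6% for Mt1, 0.809% for Mt2 and 7.91% for Mt3 in Astro, and 57.1%, 60.9% and 84.8% in PAP. Per library total, without TMM factors, the Astro values were 8.73%, 5.10% and 5.62%. A larger spread in PAP was general: the median coefficient over tested genes, many of which had few PAP counts, was 22.1% in Astro and 97.0% in PAP.

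**Figure D3:**
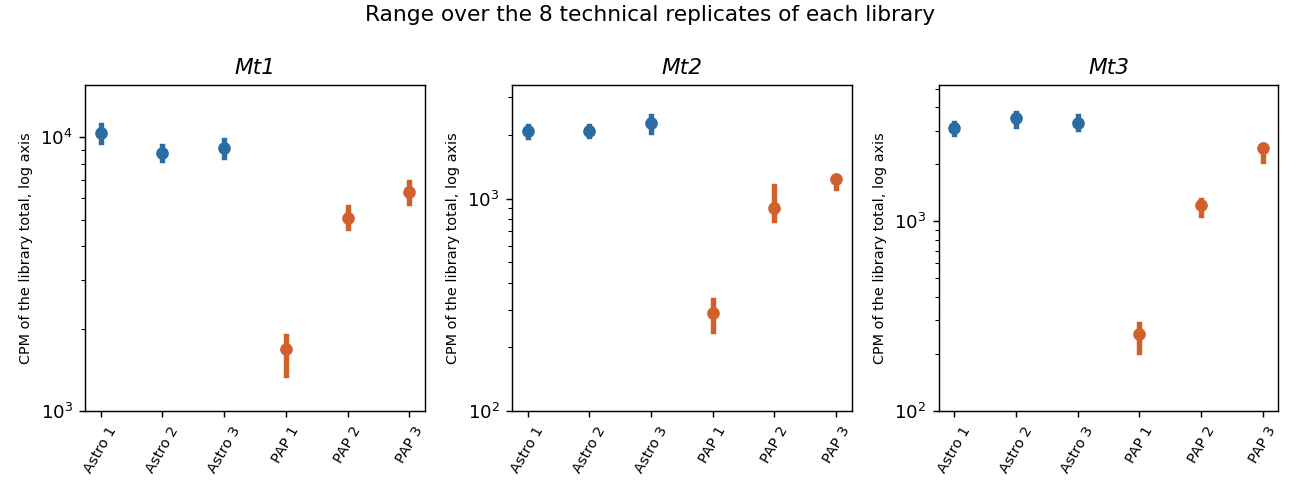
Mt1, Mt2 and Mt3 in each library as CPM of the library total without TMM factors, on a log axis, with the bar from the lowest to the highest of 8 technical replicates and a dot at their median. The PAP ranges of Mt1 and of Mt3 are separate from each other in all 3 animals, and those of Mt2 meet in animals 2 and 3.

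Together the 3 messages took up 1.56%, 1.44% and 1.48% of all counts in the Astro libraries and 0.221%, 0.720% and 0.990% in the PAP libraries. The PAP shares lay below all Astro shares. Their 95% Wilson binomial intervals ran from 0.214% to 0.228% in PAP animal 1 and from 0.979% to 1.00% in PAP animal 3. These intervals cover counting error only, because reads without molecular identifiers are not independent molecules. The mean share was 1.50% ± 0.0614 in Astro and 0.644% ± 0.391 in PAP (SD, n = 3), a log2 ratio of -1.22.

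Set against the counts of the 12 astrocyte markers, the metallothionein counts did not have this separation. Their ratio was 0.758, 0.761 and 0.897 in Astro and 0.677, 1.12 and 0.925 in PAP, so the compartments overlapped. The mean ratio was 0.805 ± 0.0793 in Astro and 0.907 ± 0.222 in PAP (SD, n = 3). This ratio was formed after the values were seen.

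The makeup of the metallothionein pool was led by Mt1 in all 6 libraries. Mt1 gave 66.7%, 61.3% and 62.0% of the pool in Astro and 75.5%, 70.5% and 63.8% in PAP. Mt3 gave 20.0%, 24.2% and 22.6% in Astro and 11.6%, 16.8% and 23.9% in PAP, so PAP animal 3 was within the Astro range and the other PAP libraries were below it. Mt2 gave 13.4%, 14.5% and 15.4% in Astro and 12.9%, 12.7% and 12.3% in PAP.

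The Mt1 to Mt2 ratio of counts was 4.99, 4.24 and 4.03 in Astro and 5.85, 5.56 and 5.19 in PAP, without overlap. The mean was 4.42 ± 0.505 in Astro and 5.54 ± 0.332 in PAP (SD, n = 3). The Mt1 to Mt3 ratio overlapped, at 3.34, 2.53 and 2.75 in Astro and 6.53, 4.20 and 2.67 in PAP. These ratios, too, were chosen after the values were seen.

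**Figure D4:**
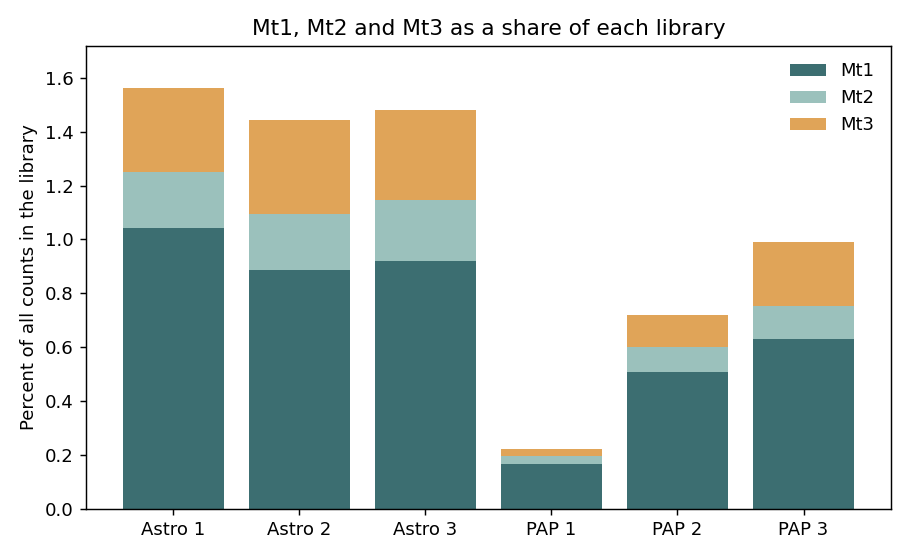
Counts of Mt1, Mt2 and Mt3 as stacked percentages of all counts in each pooled library, on an axis from 0. The stacks reach 1.44% to 1.56% in Astro and 0.221% to 0.990% in PAP, and Mt1 is the tallest segment in each library.

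Per kilobase of the principal transcript, a scale on which genes can be set side by side, Mt1 was the most abundant of 12696 tested protein-coding genes in Astro and the second in PAP by its mean over libraries. Mt1 stood at 18314 ± 2133 CPM per kb in Astro and 7639 ± 4359 CPM per kb in PAP (SD, n = 3), and its rank was 1, 2 and 1 in the Astro libraries and 15, 2 and 1 in the PAP libraries of animals 1, 2 and 3. Mt3 ranked 5 in Astro and 22 in PAP, at 6557 ± 519 and 2309 ± 1958 CPM per kb, and its rank in single PAP libraries was 147, 29 and 8. Mt2 ranked 8 and 45, at 4448 ± 36.0 and 1519 ± 925 CPM per kb, with 131, 39 and 18 in single PAP libraries. These ranks depend on the length used, which for Mt1 was 549 nt against 1246 nt for all its annotated exons. By CPM without division by length, Mt1 ranked 3 in Astro and 9 in PAP, Mt3 16 and 65, and Mt2 26 and 126.

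In Astro the order Mt1, Mt3, Mt2 held in every library. In PAP Mt1 was above both others in every library, while Mt3 and Mt2 changed places: their levels were 445 and 520 CPM per kb in animal 1, 2132 and 1689 in animal 2, and 4349 and 2347 in animal 3. Mt2 and Mt3 therefore did not differ beyond their spread in PAP. The other members followed far below.

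Mtf1, the gene of the zinc-sensing factor, showed no shared direction over animals. Mtf1 (ENSMUSG00000028890, chr4:124802104-124849800, plus strand) stood at 68.6, 82.9 and 61.4 CPM in Astro and at 138, 23.7 and 109 CPM in PAP. It was higher in PAP in animals 1 and 3 and lower in animal 2. The fitted log2 fold change was 0.35 ± 0.69, less than its error, and without the PAP library of animal 1 it was -0.14.

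The 46 Mtf1 counts in PAP animal 2 compare with 122 that the mean Astro level would give at that depth, while 271 in animal 1 and 330 in animal 3 compare with 122 and 199. Per kilobase, Mtf1 stood at 9.29 ± 1.43 CPM in Astro and 11.8 ± 7.80 CPM in PAP (SD, n = 3), ranks 6014 and 5024. Its exons overlap the antisense gene 1110065P20Rik, which had 1368 to 1388 counts in Astro and 55 to 384 in PAP. The unknown strand setting bears on Mtf1 too.

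Slc30a1, which encodes the zinc exporter ZnT1 of the plasma membrane, was carried in PAP by 1 library. Slc30a1 (ENSMUSG00000037434, chr1:191906767-191913247, plus strand) stood at 8.06, 9.74 and 10.3 CPM in Astro and at 34.2, 0 and 0.330 CPM in PAP. Its 67 counts in PAP animal 1 were spread over the technical replicates, 5 to 12 in each, and animals 2 and 3 had 0 and 1 count where the mean Astro level would give 16.3 and 26.5. The PAP library of animal 1 was thus above all Astro libraries and the other two were below them.

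The fitted log2 fold change of Slc30a1 was 0.29 ± 1.88 and changed sign with the animal as a block, at -3.65. Summed over libraries, the PAP to Astro ratio of its share of counts was 1.15 (95% exact counting interval 0.882 to 1.49). Without PAP animal 1, Slc30a1 was 42.7-fold lower in PAP (interval 7.63 to 1690), from 1 count. The antisense gene 1700034H15Rik, which overlaps its exons, had 22 to 32 counts in Astro and 0 to 10 in PAP.

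Slc30a10, an exporter of manganese, was near the detection floor in the processes. Slc30a10 (ENSMUSG00000026614, chr1:185454848-185468762, plus strand) stood at 12.5, 15.3 and 9.24 CPM in Astro and at 0, 1.03 and 0 CPM in PAP. All PAP libraries were below all Astro libraries, with 0, 2 and 0 counts where the mean Astro level would give 21.2, 21.2 and 34.5.

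Summed over libraries, Slc30a10 was 38.4-fold lower in PAP (95% exact counting interval 10.6 to 318). The fitted log2 fold change was -5.23 ± 1.50, a value that depends on the prior count because every PAP library was at or under 3 counts. It was -6.15 with the animal as a block and -10.23 without PAP animal 2, which held the 2 counts. Of the 14618 tested genes, 16.5% were at or under 3 counts in every PAP library. The overlapping antisense gene Gm2061 had 112 to 129 counts in Astro and 0 in PAP.

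Per kilobase, Slc30a10 and Slc30a1 did not differ beyond their spread in Astro, at 2.12 ± 0.521 and 1.79 ± 0.223 CPM (SD, n = 3). In PAP Slc30a10 was at 0.0589 ± 0.102 and Slc30a1 at 2.19 ± 3.75 CPM per kb.

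Across all genes, edgeR called 15.4% of 14618 tested genes lower and 5.92% higher in PAP at an adjusted p under 0.05. All 6 members were tested and 0 were called, with 3 at an unadjusted p under 0.05, as 30.9% of tested genes were. DESeq2, which called 23.6% of tested genes lower and 11.5% higher, called 2 members, Mt2 and Slc30a10. With the animal as a block, 0.876% of tested genes were called higher and 0.0342% lower, and again 0 members were called by edgeR, with 4 at an unadjusted p under 0.05 (23.3% of tested genes). Over 18 alternatives, DESeq2 included, Mt1 was called in 2, Mt2 in 4, and Mt3 and Mtf1 in 0. Slc30a1 was called in 1 of 16 and Slc30a10 in 5 of 17. Mt1, Mt2, Mt3 and Slc30a10 were lower in PAP without overlap between compartments, which 35.1% of tested genes also were. The median log2 fold change was -1.38 over the 6 members and -0.53 over all tested genes, and -1.89 and -1.63 with the block. Nothing is read from these counts, since the members were chosen with this contrast known.

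The other genes of metal handling and of the inputs to metallothionein genes were counted on 7 lists. Of 57 genes, 52 were tested, and edgeR called 0 higher and 2 lower, 3.85% of those tested against the 15.4% for all genes. With the block edgeR called 0, 8 being at an unadjusted p under 0.05 against 23.3% of all tested genes. DESeq2 called 11, 9 lower and 2 higher, against 23.6% and 11.5% of all tested genes. The median log2 fold change of the 52 was -0.61, also with the 2 genes that had no PAP count set at their bound, and that of all tested genes was -0.47 on that footing. With the block the medians were -2.22 for the 52 genes and -1.63 for all tested genes. The blocked medians, here and per list, rest partly on genes with 0 counts in some PAP libraries. They are therefore not read as a size of change within animals.

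Among the other zinc exporters, edgeR and DESeq2 each called 1 of 6 tested genes. For both it was Slc30a5, whose product loads zinc into the secretory pathway. Slc30a5 fell, from 60.4, 91.0 and 35.1 CPM in Astro to 0, 1.03 and 0 CPM in PAP, 191-fold by summed counts (95% exact counting interval 52.9 to 1579), with an edgeR adjusted p of 0.0221. With the block its adjusted p was 0.201, and over all alternatives it ran from 4.91e-08 to 0.201. The 2 PAP counts were in 1 library, the same pattern as in Slc30a10. The list's median log2 fold change was -0.47, and -3.64 with the block.

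Among the zinc importers, edgeR called 1 of 12 tested genes, Slc39a6, a ZIP transporter, and DESeq2 called 3. Slc39a6 fell from 36.0, 28.1 and 8.63 CPM in Astro to 0 counts in all 3 PAP libraries, at least 15.7-fold lower against the mean floor of 3 counts per PAP library (both per library total, without TMM factors), with an edgeR adjusted p of 0.0246 (0.206 with the block, and 1.33e-06 to 0.223 over all alternatives). The list's median log2 fold change was -0.76, and -4.30 with the block. Slc39a10, with 0, 109 and 0 PAP counts, moved from -0.75 to -6.46 with the block. Slc39a13, with 0, 1 and 247 PAP counts, moved from -0.45 to -5.15.

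In the reported edgeR fit 0 genes on the remaining lists were called, while DESeq2 called 5 of 14 copper genes, 0 of 5 manganese genes, 1 of 6 MTF1 targets and 1 of 12 glucocorticoid-response genes. Copper handling, which shares ligands with metallothioneins, had a median log2 fold change of -0.35, or -0.84 with the block. Of its most abundant genes, the mitochondrial copper chaperone Cox17 stood at 173 ± 17.4 CPM in Astro and 214 ± 34.8 CPM in PAP, and the cytosolic chaperone Atox1 at 197 ± 37.2 and 101 ± 45.2 CPM (SD, n = 3). Manganese transport had 5 tested genes and a median of 0.70, or -1.01 with the block. Its most abundant genes were Atp2c1, the Golgi calcium and manganese pump, at 142 ± 69.2 and 243 ± 122 CPM, and Tmem165, a Golgi membrane protein gene, at 45.3 ± 14.9 and 82.2 ± 28.3 CPM.

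The genes described as MTF1 targets, other than members, had 6 tested genes and a median log2 fold change of -0.12, or -1.61 with the block. The most abundant were Csrp1, a LIM domain protein gene, at 2501 ± 332 CPM in Astro and 475 ± 492 CPM in PAP, and Selenow, a selenoprotein gene, at 670 ± 57.2 and 621 ± 339 CPM (SD, n = 3). The glucocorticoid-response list had 12 tested genes and a median of -1.0, or -4.32 with the block. Tsc22d3, the glucocorticoid-induced leucine zipper, stood at 928, 1421 and 1605 CPM in Astro and 21.9, 30.9 and 262 CPM in PAP, with an adjusted p of 0.0513 (edgeR) or 0.0793 when blocked by animal, and Klf9 at 380 ± 93.0 and 113 ± 83.5 CPM. Mt4 was the single gene of the last list and was not tested.

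**Figure D5:**
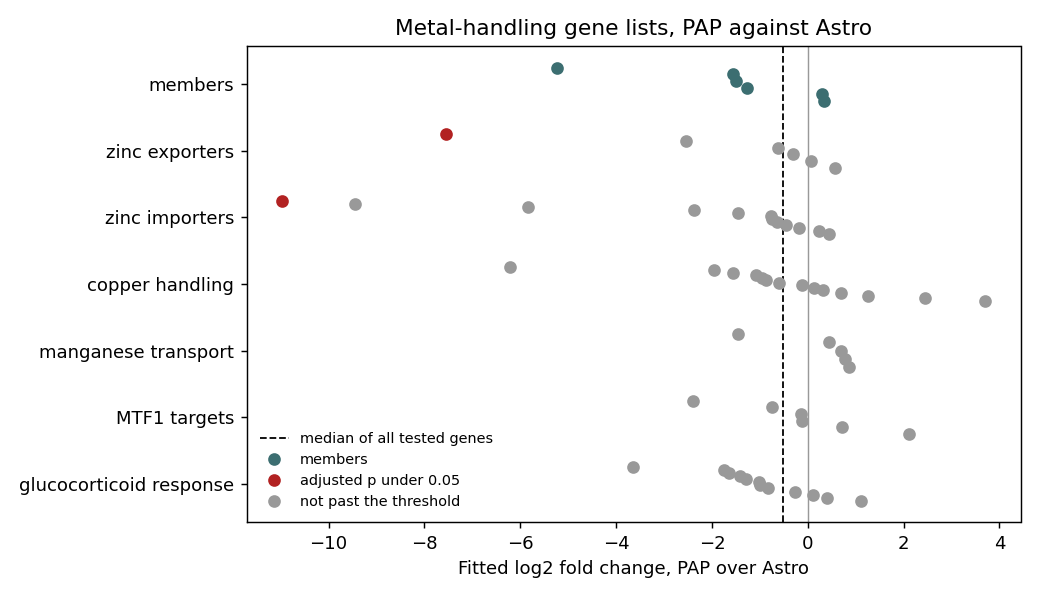
Fitted log2 fold change of PAP over Astro for the 6 members (green, none called by edgeR) and for tested genes of 6 fixed lists, red where the edgeR adjusted p is under 0.05 and grey otherwise, with the median of all tested genes as a dashed line. The called genes are Slc30a5 and Slc39a6; points near or beyond -6 have few or no PAP counts, and their position depends on the prior count.

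The genes whose profile over the 6 libraries was most like a metallothionein were found by the root mean square difference of centred log2(CPM + 1) among 9973 genes with a mean of at least 10 CPM. For Mt1 these were Gm37013 and Gm37388, at 0.103 each and with nearly the same counts as each other, and 1810037I17Rik, at 0.107. For Mt2 they were Ppp2r5b, a phosphatase regulatory subunit gene, at 0.095, the mitochondrial ribosomal protein gene Mrps33 at 0.105 and Ahcyl1 at 0.147. For Mt3 they were Hepacam, a glial adhesion molecule gene, at 0.111, Dbi, the diazepam binding inhibitor gene, at 0.114, and Rnf5, a ubiquitin ligase gene, at 0.144.

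The median difference over the 9973 genes was 1.65, 1.67 and 1.80 from Mt1, Mt2 and Mt3. Among the members, Mt1 and Mt2 differed by 0.194, Mt2 and Mt3 by 0.346, and Mt1 and Mt3 by 0.477, so Mt1 and Mt2 had the closest profiles of the 3. Hepacam, for example, stood at 821, 751 and 679 CPM in Astro and 52.0, 225 and 528 CPM in PAP, low in PAP animal 1 and high in PAP animal 3 as Mt3 was. These likenesses are over 6 libraries that share the compartments and depths.

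Markers of other cells were measured beside the members. The 6 listed B lineage genes summed to 36.1 to 55.9 CPM in Astro and to 5240, 3102 and 2385 CPM in PAP animals 1, 2 and 3, with Ighm and Cd79a at 0 in PAP. Most of the PAP sum was Igkc, an immunoglobulin light chain gene, at 2618, 1741 and 1251 CPM, and Jchain, the antibody joining chain gene, at 2515, 1202 and 1098 CPM. Of 5 tested genes 3 were called higher and 1 lower by edgeR, or 2 and 0 with the block. The 10 neuronal markers summed to 1017 to 1596 CPM in Astro and 411 to 948 CPM in PAP, with 1 called higher and 1 lower, or 0 with the block. The 8 oligodendrocyte markers summed to 811 to 877 and 535 to 1034 CPM, with 0 of 8 called.

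Choroid plexus and ependymal cells, and vessels, also express metallothioneins. The 6 ependymal and choroid plexus markers summed to 2457, 19745 and 4419 CPM in Astro and 652, 6234 and 6618 CPM in PAP, mostly Ttr, with 3 of 6 called lower (0 with the block) and Ccdc153 and Tmem212 at 0 in PAP. In the Astro library with the high Ttr level, that of animal 2, Mt3 had its highest Astro value on the TMM scale and per library total. Mt2 was highest there and Mt1 between its other values on the TMM scale, but per library total Mt1 was lowest there, at 8847 CPM, and Mt2, at 2086 CPM, was within 1 CPM of animal 1 and below animal 3. Endothelial markers summed to 5.05 to 13.1 CPM in Astro and 15.5 to 24.5 CPM in PAP, with Cldn5, Cdh5 and Slco1a4 at 0 in PAP and 0 of 2 tested genes called. The PAP sum was mostly Ly6c1 in animals 1 and 3, at 23.0 and 12.9 CPM, and Tek in animal 2, at 11.3 CPM.

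Mural markers summed to 23.2 to 44.3 and 0 to 24.7 CPM, with 1 of 3 tested genes called lower (0 with the block) and Pdgfrb and Rgs5 at 0 in PAP; Kcnj8 was at 0 in both compartments. The 8 microglial markers summed to 43.1 to 94.5 and 31.4 to 60.7 CPM, with 3 called lower (0 with the block) and Cx3cr1, P2ry12 and Tmem119 at 0 in PAP. The part of these cells in the metallothionein levels was not tested.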

How the data were processed

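The deposited files give raw counts per Ensembl gene, per the file headers, with no scaling by the authors visible in the values, and each of the 48 samples has its own file. Per the submitters' processing notes, bcl2fastq 2.18.0.12, Trim Galore 0.4.1, STAR 2.5.2b, SAMtools, HTSeq 0.5.3 and the mm10 build were used; the annotation and the strand setting are not given in the sources used here. Per the labels' protocols, lysates passed an antibody-free column and a column of nonspecific mouse antibodies before the pulldown, and the RNA was amplified with SMART-Seq v4 and made into Nextera XT libraries. Amplification of little RNA can add spread to low genes.

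Symbols, positions and transcripts came from GENCODE M21 (GRCm38), which holds 99.12% of the gene identifiers. Technical replicates were summed, 8 to a library. Genes kept by filterByExpr (minimum count 10) were tested with the quasi-likelihood test of edgeR 4.0.16 in R 4.3.3, with TMM factors, a model of compartment alone, Benjamini-Hochberg adjustment over all tested genes and a threshold of 0.05. SEs were derived from the fold change and the F statistic. Alternatives were DESeq2 1.42.0, other scalings and filters, thinning, technical replicates 1 to 4 or 5 to 8 alone, a correction for GC and length, and each library left out. The tests were tried on simulated data. Libraries of an animal share its number in the labels, which gives the pairing; deviations of same-numbered libraries from their compartment means correlated at 0.033, 0.019 and -0.025.

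The members and lists were chosen with earlier results of these data known. Named genes were the 6 members; of each list the called genes, at most 4 by absolute log2 fold change, or, with none called, the 2 of highest mean CPM; and for each metallothionein the 3 genes of most similar profile. A search of upstream sequence for metal response elements was made and is not reported, because the annotated starts could not be tied to the promoters in use.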

Additional observations from a re-analysis of the deposited data

How the results depend on the processing

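Over 18 alternatives each, Mt1, Mt2 and Mt3 had a negative log2 fold change in all 18, from -1.95 to -0.91, -2.88 to -1.18 and -2.42 to -1.06. Slc30a10 was negative in all 17 in which it was fitted, from -10.23 to -4.63. The value of Mtf1 reversed without PAP animal 1 (-0.14) and with GC and length correction plus the replicate block (-0.12), and with 1 library left out it ran from -0.14 to 0.74. That of Slc30a1 reversed with the replicate block (-3.65), with the correction plus the block (-3.34) and without PAP animal 1 (-5.57), and with 1 library left out it ran from -5.57 to 0.81. The log2 ratio of the metallothionein share kept its sign in all its alternatives, from -1.67 to -0.81 with libraries left out; library size alone is its reported scaling. TMM scaling, added after the data were seen, gave -1.35.

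The count of called genes, 3115, was 133 with the replicate block, 124 with the correction plus the block, 1414 with a mean of at least 100 counts and 5141 with DESeq2. Thinning to equal depth gave 548, and 4 further draws, added after that value was seen, gave 393, 529, 400 and 495. Leaving out 1 library gave 115 to 4586. The low values came from leaving out an Astro library (115, 128 and 140 for animals 1, 2 and 3). The 2 called pathway genes became 0 with the block, with the correction plus the block and in all 5 draws of thinning, 4 with the correction, 5 with technical replicates 5 to 8, 11 with DESeq2, and 0 to 13 with 1 library left out. The 0 calls followed from leaving out any Astro library, and without PAP animals 1, 2 and 3 the counts were 9, 8 and 13. The causes were not tested. Slc30a5 and Slc39a6 stayed under the threshold in 12 of 18 alternatives each. Of tested genes, 60.4% were at or under 3 counts in at least 1 PAP library; the part of depth in this was not tested.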
